A study of Chromochloris zofingiensis with 38 samples.

Results

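A set of 229 genes, of the 12459 in the count table of the unicellular green alga Chromochloris zofingiensis, was high after 24 h with the TOR inhibitor and near its comparison level after 1 h. The set was chosen from measured values. Group means of CPM (counts scaled to a common library total) were compared as log2 ratios with 1 CPM added, less the median ratio of the 11623 genes with a mean of at least 1 CPM. On these ratios, AZD had to lie at least 4-fold over S at 24 h and within 2-fold of S at 1 h. Glu had to lie within 2-fold of None at both times. Differences among AZD, S, Glu and None therefore chose the members and are given as a description with no test. The GA libraries had no part in the choice, and the tests set them against Glu and None, which entered it only through the limit of 2-fold between those groups. That limit held for ratios with 1 CPM added, which draws low genes towards no change. In the fit used for the tests, members' log2 Glu over None at 24 h ran from -6.97 to 3.87. The same fit gave -4.05 to 6.93 for AZD over S at 1 h. For low members, GA over Glu can thus include a Glu level well below None.

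Poly(A) RNA of wild-type cells (labelled WT, from frozen cell pellets) was sequenced in 38 libraries of 10 groups, 19 libraries at each time. At 1 h there were 3 libraries of AZD (the TOR inhibitor) and 4 each of GA, Glu (glucose), S and None (no addition). At 24 h there were 3 libraries of GA and 4 each of AZD, Glu, S and None. What S and GA stand for is not given in the labels, nor are the amounts added. GA has the initials of glucose and AZD, and is called here by its label alone. No label states that replicates came from cultures of their own, and each p-value then speaks for the scatter among these libraries, part or all of which may be technical. Title prefixes differ between the 1 h and the 24 h samples, and the prefix cannot be told apart from the time.

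The kinase TOR (target of rapamycin) couples nutrient supply to growth, promoting protein synthesis and ribosome production and holding back autophagy when nutrients are plentiful. In green algae its inhibition is known to slow growth and to change nitrogen and carbon metabolism, with free amino acids and storage compounds accumulating. C. zofingiensis is known for its response to glucose, on which it can grow while reducing its photosynthetic apparatus and accumulating lipid and ketocarotenoids. The gene IDs come with no names or products in the sources used here. No role is given to any member for that reason, 0 IDs could be placed in a pathway list, and genes are grouped below by how they responded.

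Library totals ran from 12414643 to 106150532 counts. S replicate 1 and Glu replicate 4 at 1 h were the libraries farthest from their groups in earlier work on these data; without them the rule took 238 genes, 221 of them members. All 229 members passed the filter on low counts, and 12142 genes were tested in all. Levels are CPM on scaled library sizes, given per library or as mean ± SD. They are shares of a library's RNA, so more RNA of a gene per cell and less of everything else cannot be told apart. Levels are compared between groups for 1 gene. Where genes are ranked or sorted by CPM, the order is one of reads and not of RNA amounts, since gene lengths were not used here.

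At 24 h the members took up several times more of the RNA in AZD and GA than in the other groups. They held 5.90% ± 0.180 of the counts of AZD libraries (SD, n = 4) and 4.53% ± 0.140 of GA libraries (n = 3), against 1.15% ± 0.0493 of Glu, 1.17% ± 0.117 of S and 1.06% ± 0.0718 of None libraries (n = 4 each). At 1 h the shares were 2.15% ± 0.115 in AZD (n = 3), 2.12% ± 0.0336 in GA, 1.66% ± 0.0572 in Glu, 1.77% ± 0.0755 in S and 1.72% ± 0.0378 in None (n = 4 each). Much of the share at 1 h belonged to 1 gene, Cz11g04220. Without it the members held 1.24% of AZD, 1.10% of GA, 1.04% of Glu, 0.995% of S and 1.13% of None libraries at 1 h, and 5.14%, 3.81%, 0.923%, 0.964% and 0.882% of the same groups at 24 h. GA at 24 h thus stood apart with that gene left out as well. The height of AZD over S at 24 h follows from the choice of members, with or without that gene.

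**Figure D1:**
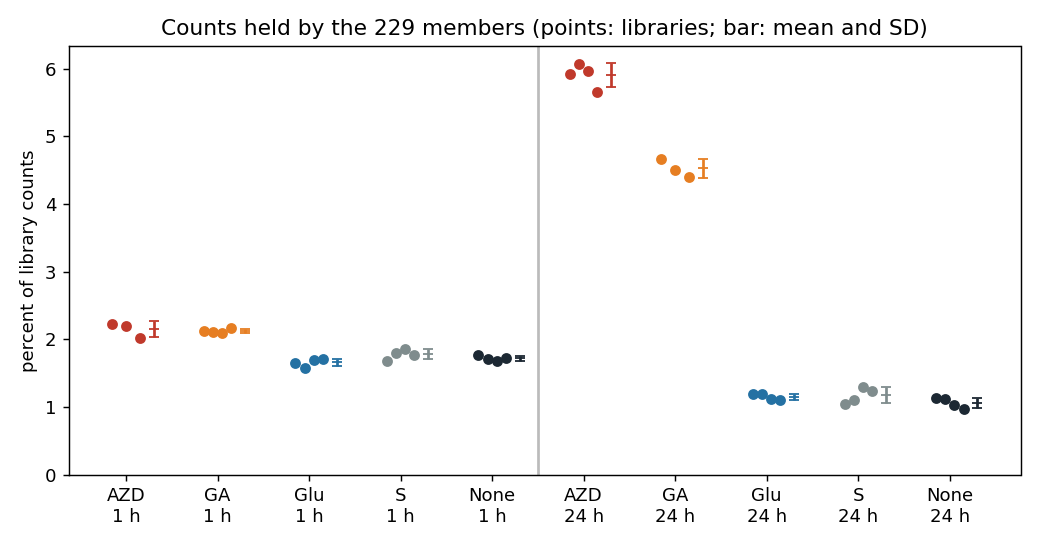
Percent of each library's counts held by the 229 members (y axis) at 1 h and 24 h, with 1 point per library and the group mean ± SD beside the points. At 24 h the AZD libraries lie between 5.65% and 6.07% and the GA libraries between 4.40% and 4.67%, apart from Glu, S and None, which lie between 0.97% and 1.30%. Members were chosen for AZD over S at 24 h, and GA had no part in the choice.

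Taken gene by gene, the rule values of AZD over S at 24 h ran from 2.00 to 6.01 on the log2 scale with a median of 2.39, and the quartiles were 2.19 and 2.77. At 1 h the same ratio ran from -0.86 to 1.0 with a median of 0.46, and 195 of the 229 lay above 0. How late the response is thus depends on the threshold, since most members were slightly above S at 1 h. For Glu over None the median was 0.23 at 1 h and 0.30 at 24 h, with 157 and 156 members above 0. In each of these ratios the centring puts 50.0% of the 11623 genes used for it above 0. S lay within 2-fold of None at 24 h for 216 members, and over all genes tested this share was 98.3%.

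**Figure D2:**
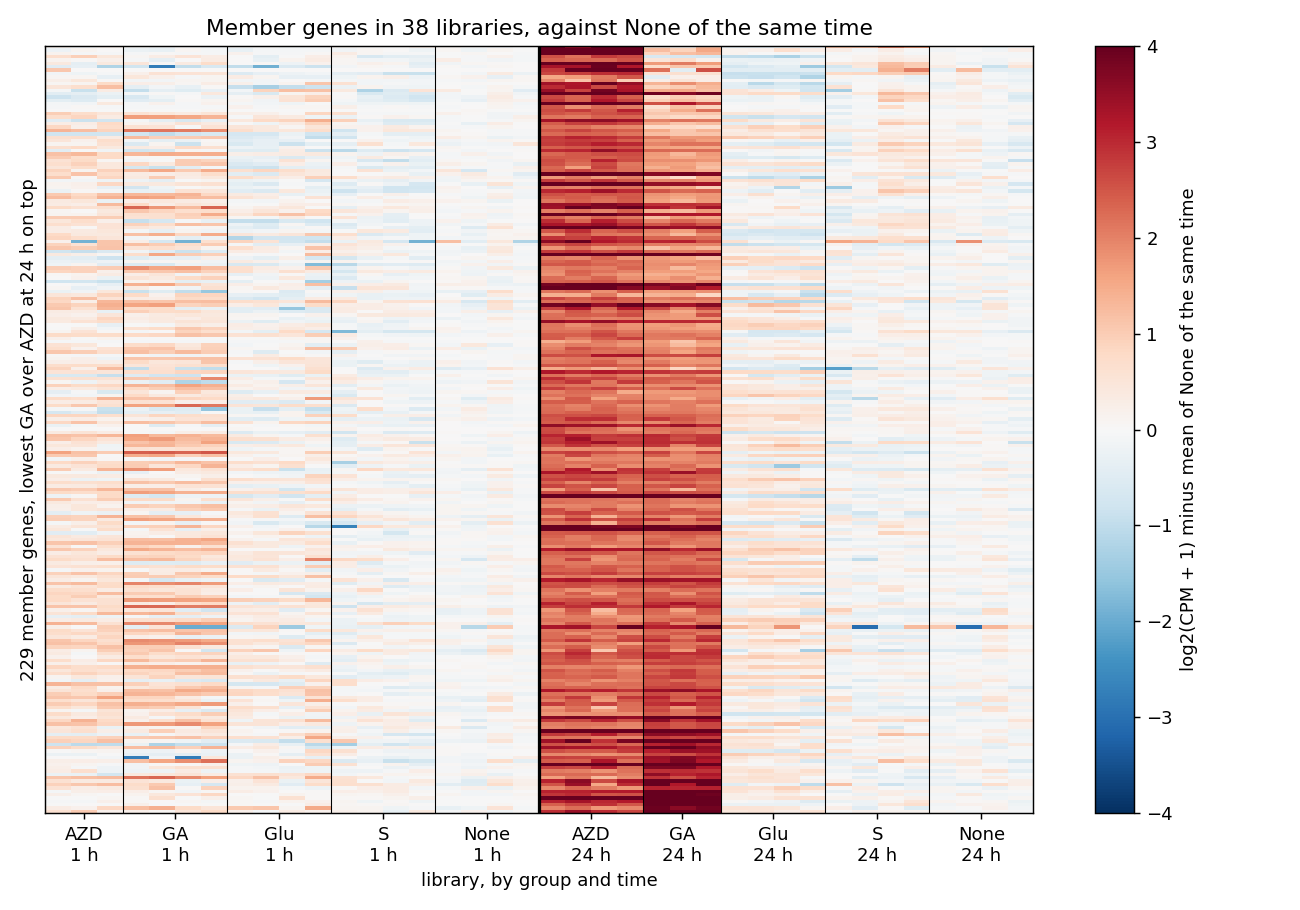
Level of each of the 229 members in each of the 38 libraries, as log2(CPM + 1) less the mean of the None libraries of the same time. Members run down the page in the order of GA over AZD at 24 h, lowest on top, and the AZD and GA columns at 24 h are the ones that stand out over the others. The AZD columns at 24 h were used to choose the members.

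The middle member was at a like height in the libraries of a group. The median of log2(CPM + 1) over the None mean lay between 2.38 and 2.45 in the 4 AZD libraries at 24 h and between 2.18 and 2.30 in the 3 GA libraries. It lay between 0.12 and 0.32 in Glu, between -0.02 and 0.13 in S and between -0.06 and 0.05 in None. At 1 h the range was 0.36 to 0.46 in AZD, 0.48 to 0.52 in GA, 0.04 to 0.17 in Glu, -0.08 to 0.00 in S and -0.04 to 0.05 in None. Replicates varied slightly more for members than for all genes in every group, by the median coefficient of variation among genes of at least 10 CPM. At 24 h it was 12.6% for members and 11.7% for all genes in AZD, 11.0% and 10.2% in GA, and 15.3% and 13.3% in S.

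Most members had ample reads without the inhibitor, and a minority was close to silent. In AZD at 24 h, 115 members were at 100 CPM or more and 0 under 1 CPM, against 13 and 31 in S. The rule left no room for members under 1 CPM in AZD at 24 h, and the height of AZD over S follows from it. A group of 21 members stayed under 1 CPM in every Glu, S and None library at 24 h, and 17 of them also in every library at 1 h. Of the 21, 12 had at least 5 CPM in every AZD library at 24 h.

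The 6 members with the largest rule values among those of at least 10 CPM in AZD at 24 h were near-silent in S with 1 exception. Cz05g20080 (rule value 6.01) had 104, 80.0, 136 and 117 CPM in the AZD libraries at 24 h, against 1.08, 0.949, 1.30 and 0.679 CPM in the S libraries. Its AZD libraries lay far above S, and GA was higher still, at 176, 169 and 178 CPM, against 2.75, 2.29, 1.88 and 0.997 CPM in Glu. The GA and Glu libraries did not overlap, and GA exceeded Glu by 6.43 ± 0.33 on the log2 scale (SE; adjusted p = 8.48e-18, edgeR). Adjusted p-values here come from the quasi-likelihood test of edgeR, with the Benjamini-Hochberg method over all genes tested. Each SE is approximated from the fold change and its F statistic. Cz01g09180 (rule value 5.99) had 73.1, 84.4, 87.3 and 90.8 CPM in AZD and 85.1, 84.1 and 85.7 CPM in GA, against 0.520, 0.606, 0.666 and 0.604 CPM in Glu, 0.299, 0.527, 0.866 and 0.650 CPM in S, and 0.495, 0.880, 0.787 and 0.635 CPM in None. AZD and GA overlapped and every other library at 24 h was under 1 CPM. From summed counts GA was 141-fold over Glu, with an exact 95% counting interval of 120 to 168 that covers counting error only. At 1 h the same gene had 1.27 ± 0.563 CPM in AZD (SD, n = 3), against 0.604 ± 0.146 CPM in S (n = 4).

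Cz01g40120 (rule value 5.79) reached 59.1 ± 5.69 CPM in AZD and 109 ± 2.05 CPM in GA, against 0.502 ± 0.139 in Glu, 0.334 ± 0.188 in S and 0.548 ± 0.319 in None. Each GA library exceeded each AZD library, and both groups stood clear of the rest. Its GA to Glu ratio was 226-fold from summed counts (exact 95% counting interval 188 to 275). The exception was Cz11g21190 (rule value 4.97), which was well above 1 CPM without the inhibitor. It had 502, 530, 447 and 332 CPM in AZD and 480, 410 and 432 CPM in GA, against 9.60, 8.74, 7.95 and 7.07 CPM in Glu, 14.7, 11.6, 15.9 and 14.8 CPM in S and 14.8, 14.6, 21.0 and 15.4 CPM in None. The Glu libraries were the lowest and did not overlap with None, and GA over Glu was 5.72 ± 0.23 on the log2 scale (SE; adjusted p = 1.57e-20, edgeR). The remaining pair, Cz13g11240 and Cz14g24260, was high in AZD and low in GA, and is described with the genes that differ between those groups.

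The 6 members with the highest CPM in AZD at 24 h included genes with many reads in every group. Cz11g04220, the highest in CPM, had 5690, 8080, 6020 and 6720 CPM in AZD and 9920, 5410 and 7580 CPM in GA at 24 h, against 1740, 2390, 2690 and 1870 CPM in Glu, 2000, 1920, 1250 and 1530 CPM in S and 1790, 1220, 1260 and 1560 CPM in None. AZD and GA overlapped, and both stood over the other 3 groups. At 1 h the mean of this gene was higher than at 24 h in every group, at 10900 ± 2930 CPM in AZD (SD, n = 3), 17200 ± 2050 in GA, 7200 ± 570 in Glu, 7450 ± 2320 in S and 5040 ± 909 in None (n = 4 each), a difference that goes with the title prefix too. GA was over Glu at both times, by 1.25 ± 0.23 at 1 h and 1.82 ± 0.24 at 24 h (log2, SE; adjusted p = 1.38e-05 and 3.26e-08, edgeR), and these differences were not shown to differ (adjusted p = 0.129).

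Cz06g19170 showed a larger late difference. It had 4670, 3930, 4400 and 3620 CPM in AZD and 5370, 6020 and 4830 CPM in GA at 24 h, against 809 ± 80.5 CPM in Glu, 497 ± 40.5 in S and 505 ± 78.4 in None (SD, n = 4 each). Every GA library was above every AZD library. Its GA over Glu difference was 0.49 ± 0.13 at 1 h and 2.74 ± 0.15 at 24 h, and was larger at 24 h by 2.25 ± 0.20 (log2, SE; adjusted p = 1.02e-11, edgeR).

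The other 4 of these members were split in GA. Cz07g23120 and Cz17g00110 had like levels in AZD and GA: 1300 ± 192 CPM in AZD, 1290 ± 342 in GA, 229 ± 39.0 in Glu, 251 ± 32.6 in S and 201 ± 15.1 in None for the first. For Cz17g00110 the levels were 1280 ± 327 in AZD, 1090 ± 178 in GA, 289 ± 65.0 in Glu, 243 ± 83.9 in S and 336 ± 133 in None. In both genes the AZD and GA libraries overlapped. Cz14g15110 had 1280, 1200, 1690 and 1130 CPM in AZD and 382, 326 and 387 CPM in GA, against 41.9 ± 2.82 in Glu, 44.6 ± 15.9 in S and 25.5 ± 5.90 in None, so that GA was in between and apart from both sides. Cz07g21150 also had GA in between, at 2380 ± 279 CPM in AZD and 919 ± 119 in GA, against 305 ± 43.7 in Glu, 536 ± 235 in S and 390 ± 115 in None. Its gap to S was narrow, with 804 CPM in the lowest GA library and 304, 370, 782 and 687 CPM in the S libraries. All 4 were higher in GA than in Glu at 24 h, with log2 fold changes between 1.59 ± 0.26 (Cz07g21150) and 3.12 ± 0.23 (Cz14g15110).

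**Figure D3:**
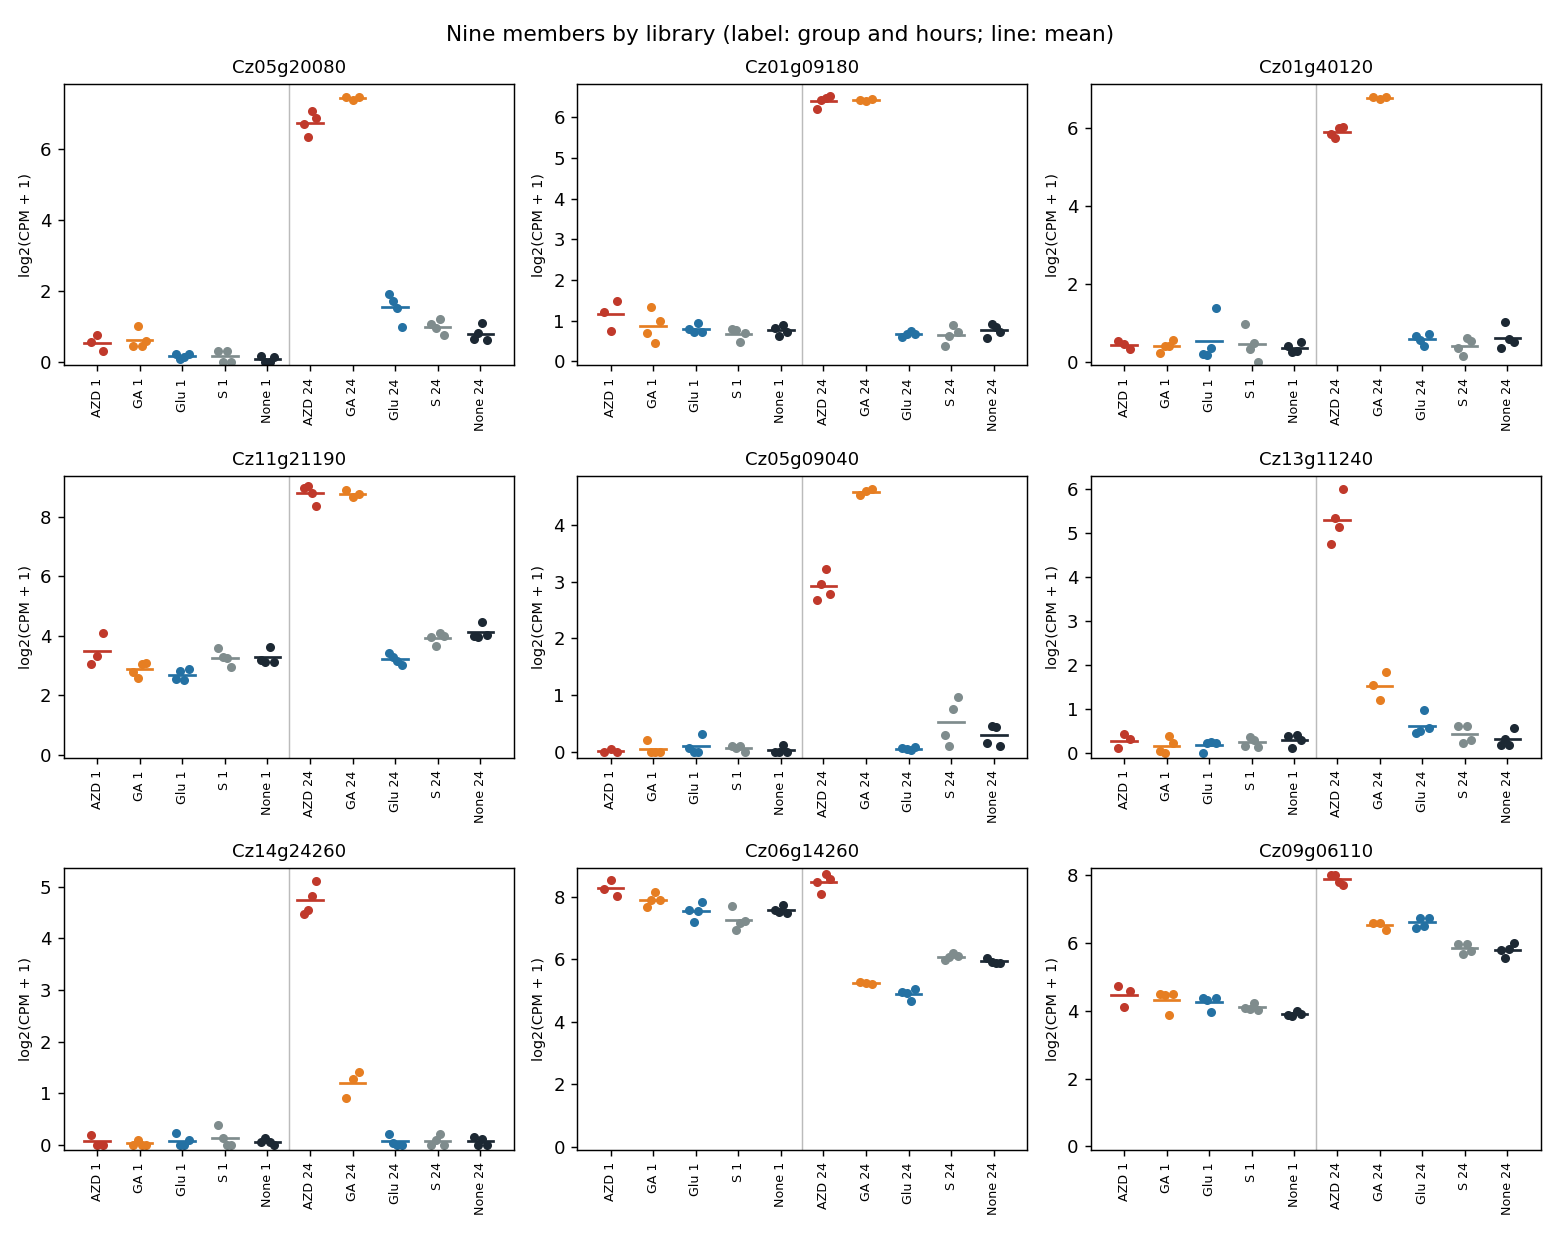
Log2(CPM + 1) of 9 members in each library (points) at 1 h and 24 h, groups in the order AZD, GA, Glu, S and None, with the group mean as a line. At 24 h GA overlaps AZD or passes it for Cz05g20080, Cz01g09180, Cz01g40120, Cz11g21190 and Cz05g09040, lies far below AZD for Cz13g11240, Cz14g24260 and Cz06g14260, and lies with Glu for Cz09g06110.

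GA against Glu at 24 h asks whether the set is also high where glucose is on both sides of the comparison, if the labels mean what their letters say. GA libraries were not used to choose the members, and Glu entered the choice only through the limit of 2-fold around None in either direction. With 1 CPM added to both sides, that limit let Glu lie further from None in low genes. Of the 229 members, 227 rose in GA (99.1%), and 0 fell. Over all genes tested, 40.8% were called higher and 35.6% lower. At an unadjusted p under 0.05, edgeR counted 0 members lower, and DESeq2 also called 0 lower. The rise was at least 2-fold in 218 members (26.6% of all genes tested), at least 4-fold in 142 (10.8%) and at least 8-fold in 60 (3.95%). The median log2 fold change was 2.23 for the members and 0.11 for all genes tested. Every GA library lay above every Glu library for 227 members, against 41.7% of all genes tested.

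**Figure D4:**
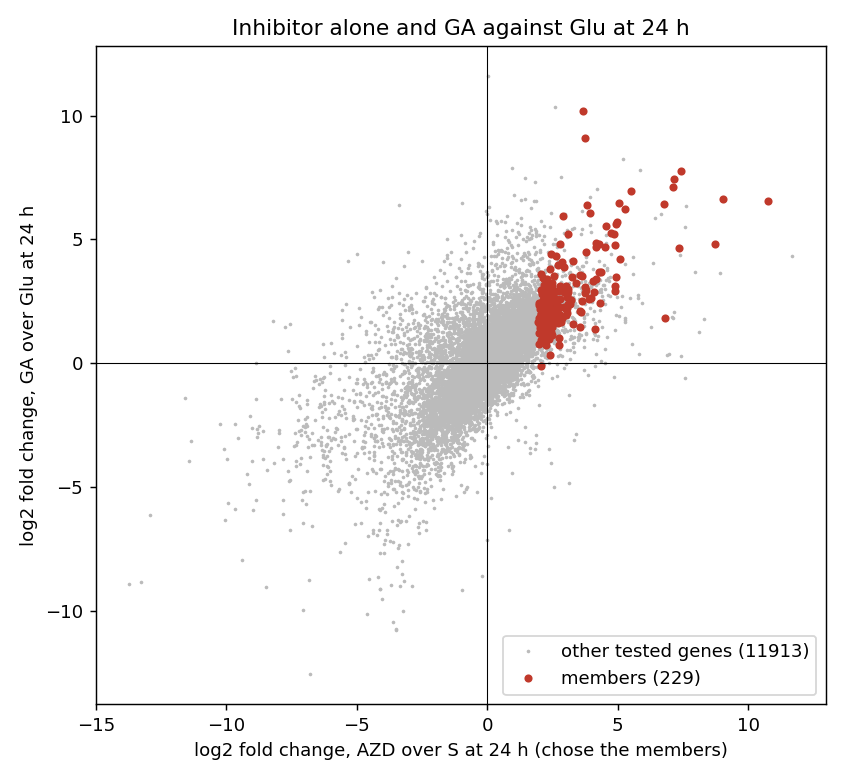
Log2 fold change of GA over Glu at 24 h (y axis) against that of AZD over S at 24 h (x axis) for 229 members and the 11913 other genes tested. The x axis was used to choose the members. Nearly all of them lie above 0 on the y axis, where their median is 2.23 against 0.11 over all genes tested.

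The 5 largest rises in GA were of genes under 1 CPM in every Glu library at 24 h. Cz05g09040 had 21.9, 23.2 and 23.8 CPM in GA, against 0.0433, 0.0373, 0.0202 and 0.0604 CPM in Glu. Its None libraries were higher than Glu, at 0.110, 0.377, 0.358 and 0.0748 CPM. GA and Glu were far apart, and GA was higher by 9.10 ± 0.76 (log2, SE; adjusted p = 9.82e-13, edgeR), but the Glu side held 9 counts in all, and the ratio of summed counts was 603-fold with an exact 95% counting interval of 317 to 1320. Cz05g34050 had 90.7, 58.2 and 87.0 CPM in GA, against 0.260, 0.354, 0.605 and 0.665 CPM in Glu, a ratio of 185-fold (exact 95% counting interval 152 to 227). Both genes were higher in every GA library than in every AZD library, where they had 6.61 ± 1.27 and 28.5 ± 6.68 CPM. Cz01g40120 and Cz01g09180, described above, were also among these 5.

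UNPLg00127 had the largest fitted rise and the least firm one. It had 5.24, 0.00 and 6.96 CPM in the 3 GA libraries and was at 0 in the 4 Glu libraries. GA held 575 counts in all and was at least 346-fold higher than Glu at a floor of 3 counts over the group (adjusted p = 0.00196, edgeR). One GA library was at 0 as well, so the groups overlapped. AZD libraries had 8.44, 21.2, 28.3 and 34.4 CPM, and S had 0.00, 0.00, 2.57 and 4.58 CPM, so this gene was at 0 in single libraries of several groups and not in others. Against None, where 1 library had 2.26 CPM and the other 3 were at 0, it missed the threshold (adjusted p = 0.0793, edgeR).

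Of the 2 members that were not called in GA against Glu, 1 was well measured and 1 had few counts. Cz09g06110 had 94.5, 95.2 and 82.4 CPM in GA, against 85.6, 106, 90.2 and 106 CPM in Glu, and GA less Glu was -0.10 ± 0.14 (log2, SE; adjusted p = 0.548, edgeR). Its GA and Glu libraries overlapped, and AZD stood above both at 255, 254, 219 and 207 CPM. S and None were lower than Glu, at 56.5 ± 5.91 and 54.5 ± 6.72 CPM (SD, n = 4 each). Cz08g02100, chosen after its values were seen, was low throughout, with 0.498, 0.767 and 0.491 CPM in GA, against 0.217, 0.177, 0.202 and 0.302 CPM in Glu. Its difference of 1.40 ± 0.70 (log2, SE; adjusted p = 0.0686, edgeR) rested on 75 counts in GA and 49 in Glu, which leaves a change of this size undecided at this depth.

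After Cz09g06110, the members of at least 10 CPM in AZD with the smallest GA over Glu difference were Cz06g14260, Cz15g19130 and Cz17g10160. Cz06g14260 had 37.8, 37.1 and 36.1 CPM in GA, against 30.2, 29.3, 24.3 and 32.5 CPM in Glu, a log2 difference of 0.35 ± 0.16 (SE; adjusted p = 0.0454, edgeR). The groups did not overlap, but the call was lost in 12 of its alternative settings, which is most of them. There the log2 difference was 0.22 to 0.37 and the adjusted p 0.0541 to 0.318. Cz15g19130 had 70.6, 71.2 and 73.0 CPM in GA, against 47.3, 45.5, 40.0 and 40.6 CPM in Glu, and rose by 0.72 ± 0.16 (log2, SE; adjusted p = 0.000167, edgeR). Its GA level was between Glu and AZD, which had 197 ± 16.4 CPM. Cz17g10160 rose by 0.74 ± 0.21 (log2, SE; adjusted p = 0.00228, edgeR), with 20.1 ± 3.78 CPM in GA (SD, n = 3), against 12.1 ± 0.845 in Glu (n = 4).

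GA and AZD were set side by side at 24 h without a test, because the members were chosen for high AZD values. GA lay within 2-fold of AZD for 187 members (81.7%, against 79.8% of all genes tested), and the median log2 ratio of GA over AZD was -0.15. The ratio was wide at its ends, from -4.41 to 2.24. GA was at least 2-fold below AZD for 29 members (12.7%, against 10.9% of all genes tested) and at least 4-fold below for 14 (6.11%, against 3.78%). It was at least 2-fold above AZD for 13 (5.68%, against 9.30%). The shares within 2-fold and at least 2-fold below were thus near those of all genes tested.

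Of the 14 members picked for GA at least 4-fold below AZD, 13 were called higher in GA than in Glu (40.8% of all genes tested were). These include Cz06g14260, whose call was lost in 12 alternative settings. Cz13g11240 had 1.94, 1.30 and 2.61 CPM in GA and 25.9, 39.7, 34.5 and 63.3 CPM in AZD, against 0.368, 0.410, 0.969 and 0.483 CPM in Glu. GA was a small step above Glu, by 1.82 ± 0.45 (log2, SE; adjusted p = 0.00052, edgeR), and far below AZD, with a log2 ratio of -4.38. Cz14g24260 had 0.877, 1.43 and 1.65 CPM in GA and 21.1, 22.5, 27.5 and 33.6 CPM in AZD, against 0.152, 0.028, 0.00 and 0.00 CPM in Glu. It was again apart from both, and the GA to Glu ratio of 31.6-fold (exact 95% counting interval 16.8 to 67.0) rested on 10 counts in Glu. Cz16g02200, chosen after its values were seen, had the lowest ratio of GA over AZD (-4.41), with 0.759, 0.476 and 2.06 CPM in GA and 20.2, 13.9, 26.2 and 34.6 CPM in AZD, against 0.065, 0.0373, 0.141 and 0.0604 CPM in Glu. Its GA mean of 1.10 ± 0.847 CPM (SD, n = 3) was under the S mean of 3.10 ± 1.22 CPM (n = 4). Cz06g32040, also chosen after its values were seen, had 8.17 ± 1.44 CPM in GA and 53.7 ± 8.50 in AZD, against 1.38 ± 0.396 in Glu.

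Cz06g14260 had the lowest log2 fold change of GA over None among the members. At 24 h it had 354, 274, 423 and 378 CPM in AZD and 37.8, 37.1 and 36.1 CPM in GA, against 30.2, 29.3, 24.3 and 32.5 CPM in Glu, 61.8, 66.8, 73.4 and 67.6 CPM in S and 64.8, 59.4, 58.7 and 57.8 CPM in None. The AZD libraries were the highest, and GA and Glu lay together below S and None. Its Glu over None value of -0.99 was at the edge of what the rule allowed. At 1 h the groups were closer, at 312 ± 56.0 CPM in AZD (SD, n = 3), 239 ± 33.2 in GA, 189 ± 34.2 in Glu, 157 ± 37.7 in S and 192 ± 15.5 in None (n = 4 each).

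The 13 members with GA at least 2-fold above AZD were picked for that gap, which is a description. Among them, the GA and AZD libraries of Cz09g01110, chosen after its values were seen, overlapped, at 1030 ± 384 CPM in GA (SD, n = 3) and 469 ± 229 in AZD (n = 4). Cz14g09220, chosen after its values were seen, had the highest ratio (2.24), with 36.0, 43.5 and 36.1 CPM in GA and 7.52, 11.2, 7.86 and 6.08 CPM in AZD, against 0.477, 0.559, 0.323 and 0.665 CPM in Glu. Its S and None libraries at 24 h were lower still, at 0.203 ± 0.0617 and 0.111 ± 0.0503 CPM (SD, n = 4 each). At 1 h its group means lay closer together, the highest being 5.25 ± 1.82 CPM in AZD and the lowest 3.00 ± 0.393 CPM in None. Cz05g06080, likewise chosen after its values were seen, had 363, 293 and 344 CPM in GA and 91.2, 111, 77.8 and 90.1 CPM in AZD, against 33.6, 33.1, 31.5 and 25.0 CPM in Glu, and GA over Glu was 3.43 ± 0.25 (log2, SE; adjusted p = 4.47e-14, edgeR). Cz05g09030, also chosen that way and next in ID to Cz05g09040, had 49.9 ± 1.88 CPM in GA and 16.4 ± 1.54 in AZD, against 0.719 ± 0.266 in Glu.

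GA against None at 24 h sets the same GA libraries against cells with no addition. It shares GA with the comparison against Glu, so the calls are not independent of that one, and None entered the choice of members through the limit on Glu over None. Of the 229 members, 224 rose (36.5% of all genes tested were called higher) and 1 fell (39.2%). The rise was at least 2-fold in 220 members (22.9% of all genes tested), at least 4-fold in 165 (9.92%) and at least 8-fold in 62 (4.12%). The median log2 fold change was 2.41 for members and -0.04 for all genes tested. The member that fell was Cz06g14260, by 0.70 on the log2 scale (SE 0.16; adjusted p = 0.000217, edgeR), and all its GA libraries were below all its None libraries (39.4% of all genes tested). For 224 members every GA library was above every None library (36.9%). Of the 4 that missed the threshold, UNPLg00127 and Cz08g02100 are described above. The other 2 were Cz13g16150, at 0.93 ± 0.44 (adjusted p = 0.0521, edgeR), and Cz14g01170, at 0.06 ± 0.63 (adjusted p = 0.931, edgeR), both chosen after their values were seen. Cz14g01170 had 1.28, 2.57 and 2.69 CPM in GA, against 2.23, 2.45, 1.90 and 1.79 CPM in None, and these overlapped, with Glu lower than None at 0.609 ± 0.191 CPM.

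GA against Glu at 1 h was the early counterpart. Of the 229 members, 117 rose in GA (51.1%) and 15 fell, against 31.6% and 26.7% of all genes tested. The differences were smaller than at 24 h: 53 rose at least 2-fold (11.7% of all genes tested), 6 at least 4-fold (2.04%), and 6 fell at least 2-fold (12.6%). The median was 0.49 for members and 0.10 for all genes tested. Every GA library was above every Glu library for 91 members (25.6% of all genes tested) and below for 7 (21.6%). These counts depend on how libraries are scaled. With library totals alone, which move the median of all genes to -0.40, 53 members rose and 36 fell (12.4% and 46.9% of all genes tested), and the members' median was -0.01. Leaving out GA replicate 1, 2, 3 or 4 at 1 h gave 89, 91, 91 and 88 members higher. The members lower were then 22, 17, 19 and 23. Without replicate 4, the medians were 0.33 for members and -0.04 for all genes tested. Of 6527 calls over all genes tested, 2838 were then higher (43.5%), against 3836 of 7083 (54.2%) in the main fit. A fit of the compared groups gave 81 members higher and 13 lower, with 45.8% of calls over all genes higher. With no filter on low counts, 96 were higher and 22 lower (44.8%).

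The 3 members with the largest early rise in GA were low at 1 h. UNPLg00055 had 6.22, 3.96, 2.51 and 6.32 CPM in GA at 1 h, against 0.593, 0.798, 1.01 and 0.449 CPM in Glu, higher by 2.81 ± 0.38 (log2, SE; adjusted p = 1.19e-07, edgeR). GA and Glu did not overlap, and AZD at 1 h was in between, at 1.52, 1.23 and 1.27 CPM. At 24 h it had 34.5 ± 7.78 CPM in AZD and 21.5 ± 3.73 in GA, against 1.94 ± 0.821 in Glu. Cz12g22010 had 0.936, 1.79, 0.269 and 1.36 CPM in GA at 1 h, against 0.350, 0.355, 0.184 and 0.0792 CPM in Glu, and rose by 2.20 ± 0.50 (log2, SE; adjusted p = 0.000284, edgeR), although its lowest GA library was under its highest Glu library. Cz02g40040 rose by 2.40 ± 0.61 at 1 h (log2, SE; adjusted p = 0.00111, edgeR), with 0.541 ± 0.304 CPM in GA, against 0.107 ± 0.0545 in Glu, on 53 and 17 counts.

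A member with GA below Glu at 1 h and above it at 24 h was Cz05g07040, chosen after its values were seen. At 1 h it had 19.0, 15.3, 12.7 and 15.9 CPM in GA, against 27.2, 35.7, 37.9 and 57.3 CPM in Glu, and the groups did not overlap (log2 -1.33 ± 0.25, SE; adjusted p = 3.4e-05, edgeR). At 24 h it had 885, 1060, 1060 and 918 CPM in AZD and 351, 407 and 384 CPM in GA, against 151, 115, 108 and 130 CPM in Glu and 72.9, 81.5, 131 and 116 CPM in S. GA was then above Glu in every library.

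The difference between GA and Glu was larger at 24 h than at 1 h for 203 members (36.1% of all genes tested) by the test of that difference, and smaller for 2 (29.7%). It was larger by at least 2-fold in 169 members (24.8% of all genes tested), 4-fold in 97 (9.17%) and 8-fold in 56 (3.35%), and the median difference was 1.76 for members and 0.14 for all genes tested. The 2 in the other direction, both chosen after their values were seen, were Cz03g09160 and Cz05g24150. For Cz03g09160 GA over Glu was 1.75 ± 0.20 at 1 h and 1.01 ± 0.21 at 24 h, a difference of -0.74 ± 0.29 (log2, SE; adjusted p = 0.0237, edgeR). For Cz05g24150 it was 1.47 ± 0.17 at 1 h and 0.81 ± 0.18 at 24 h, a difference of -0.67 ± 0.25 (adjusted p = 0.0212, edgeR). In both genes GA was above Glu at both times. Leaving out single GA or Glu libraries brought this count of 2 to 0 or 1 in 7 settings: 0 without GA replicate 1 at 1 h or GA replicate 3 at 24 h, and 1 without GA replicates 2, 3 or 4 at 1 h, GA replicate 4 at 24 h or Glu replicate 4 at 1 h. With library totals alone it was also 0.

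**Figure D5:**
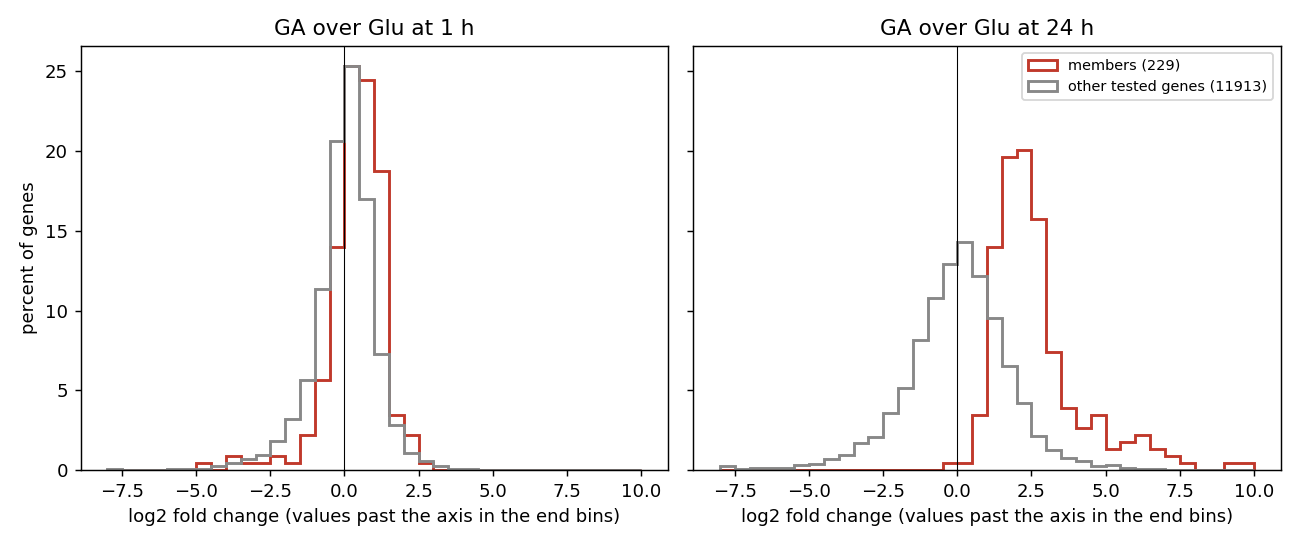
Distribution of the log2 fold change of GA over Glu at 1 h and at 24 h, as percent of genes in bins of 0.5, for the 229 members and the 11913 other genes tested. The members' median is 0.49 at 1 h and 2.23 at 24 h, against 0.10 and 0.11 over all genes tested.

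The members were spread over all 20 ID prefixes, which were not checked against a genome. They made up 1.84% of the table, 11 of 180 IDs beginning with Cz18 (6.11%), 17 of 495 beginning with UNPL (3.43%) and 3 of 683 beginning with Cz08 (0.439%). Of the members, 16 formed 8 pairs that follow each other in the order of the table's IDs, and the next ID was a member for 3.49% of members and 1.84% of all genes. In the pair Cz18g05060 and Cz18g05070, chosen after its values were seen, the rule values of AZD over S were 4.01 and 3.97, and the log2 fold changes of GA over Glu at 24 h were 3.34 ± 0.24 and 3.40 ± 0.25. In the pair Cz14g24250 and Cz14g24260, also chosen after its values were seen, they differed more, at 1.15 ± 0.31 and 4.82 ± 0.77 for GA over Glu. How the estimation divided reads among gene copies that are nearly alike, or among genes that overlap, was not checked.

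The limits of the set are soft. Just inside the 4-fold limit at 24 h were Cz05g01020 (2.0020), Cz05g35040 (2.0183) and Cz16g12220 (2.0194), and just outside it Cz17g14130 (1.9998), Cz04g12010 (1.9996) and Cz01g24070 (1.9981). There were 76 members with values from 2.00 to 2.25 and 125 genes from 1.75 to 2.00 that met the other conditions. A further 113 genes failed only on AZD over S at 1 h, 112 of them on the high side, 9 only on Glu over None at 1 h and 151 only on Glu over None at 24 h, 129 of these on the high side. In all, 703 genes had AZD at least 4-fold over S at 24 h.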

How the data were processed

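The deposited table holds estimated counts per gene, 1 column per library, with fractions and with no depth scaling. The labels' protocols describe frozen pellets, RNA extraction with DNase, poly(A) selection, paired reads and trimming by BBDUK. Salmon and DESeq2 1.46.0 are named, with no role, in the submitters' processing notes. For the build, annotation and strand setting, nothing is given in the sources used here. Of the columns, 0 belonged to other samples. Libraries held 12414643 to 106150532 counts. Chi-square per degree of freedom over genes was 7.39 to 410 in the 54 replicate pairs, above sampling noise in each, so no pair was taken for repeat deposits of 1 library.

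The members and all lists were chosen with earlier results of these data known. The choice used deposited columns scaled to their totals; the 1 CPM limit served only to centre each ratio, and 7 members had a mean below it. Counts were then rounded to whole numbers and fitted with edgeR 4.0.16 in R 4.3.3: filterByExpr (minimum count 10, minimum total 15), TMM scaling, 1 quasi-likelihood model with a mean for each of 10 groups, and 28 residual degrees of freedom (common biological variation 0.20). P-values were adjusted by Benjamini-Hochberg over the 12142 genes tested, with a threshold of 0.05. Under TMM scaling every difference is relative to the bulk of expressed genes. Exact 95% intervals on summed counts cover counting error only, as amplified fragments are not independent molecules. DESeq2 1.42.0 was an alternative.

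Named members were the 6 with the largest AZD over S value at 24 h among those of at least 10 CPM in AZD, the 6 highest in AZD, the 5 with the largest called rise and the 5 with the largest called fall of GA over Glu at 24 h (there was 0 of these), the 4 nearest to no change in it, the 3 with the largest called rise at 1 h, and the 3 on either side of the limit. Others are marked as chosen after their values were seen. Alternatives were other scalings, filters, reference groups and pseudocounts, a replicate block, a fit of the compared groups, and leaving out libraries.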

Additional observations from a re-analysis of the deposited data

Results flagged for a closer look

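The 28 named genes were screened in groups of 4 libraries, 216 groups with more than 3 counts in a library, and the summed share of the members in 8 more, where no library stood apart. In 20 groups of named genes, 11 at 1 h and 9 at 24 h, 1 library stood apart from the other 3 by Dixon's criterion, which chance meets in about 1 of 20 groups. At 1 h, Glu replicate 4 was high for Cz17g00110 (1280 CPM, 454 to 534 in the others) and Cz01g40120 (1.6 CPM, 0.118 to 0.276). S replicate 1 was high at 1 h for Cz14g15110 (30.3 CPM, 20.1 to 21.7 in the others) and Cz15g19130 (28.8 CPM, 16.9 to 17.4). These are the libraries named above as farthest from their groups. The other groups at 1 h were Cz05g34050 in Glu replicate 3 (0.552 CPM, 0.00 to 0.0539 in the others), Cz13g11240 in Glu replicate 1 (0.00 CPM, 0.172 to 0.184), Cz11g21190 in None replicate 3 (11.4 CPM, 7.73 to 8.14), Cz05g09040 in GA replicate 1 (0.163 CPM, 0.00) and None replicate 3 (0.0812 CPM, 0.00), Cz09g06110 in GA replicate 3 (13.6 CPM, 20.9 to 21.7) and Cz17g14130 in S replicate 2 (84.8 CPM, 67.3 to 69.4). In None at 24 h, Cz11g21190 had 21.0 CPM in replicate 3 (14.6 to 15.4 in the others), UNPLg00127 had 2.26 CPM in replicate 2 (0.00 in the others), Cz15g19130 had 30.1 CPM in replicate 4 (33.7 to 34.4 in the others) and Cz02g40040 had 0.628 CPM in replicate 2 (0.107 to 0.165 in the others). Cz17g10160 had 4.37 CPM in S replicate 1 at 24 h (6.53 to 6.96 in the others). Cz05g34050 had 38.4 CPM in AZD replicate 2 at 24 h (24.1 to 26.1 in the others), and UNPLg00055 had 3.17 CPM in Glu replicate 3 at 24 h (1.42 to 1.6 in the others). The other 2 at 24 h were of genes just outside the 4-fold limit. Cz17g14130 had 53.2 CPM in S replicate 1 at 24 h (19.6 to 23.5 in the others), and Cz04g12010 had 4.22 CPM in None replicate 4 at 24 h (2.20 to 2.51 in the others).

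The difference of GA less Glu was not equal at 1 h and 24 h, by edgeR's test of that difference, for 203 members with a more positive value at 24 h (36.1% of all genes tested) and 2 with a more negative one (29.7%). Among the 3 members with the largest early rise, Cz02g40040 had a value more positive at 24 h by 3.20 ± 0.83 (log2, SE; adjusted p = 0.00117, edgeR). The part of the title prefix in these differences was not tested.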

How the results depend on the processing

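The rule took 204 to 279 genes under other scalings, pseudocounts or references, sharing 146 (no centring) to 214 (TMM scaling) with the 229, and 221 to 247 with single libraries left out. Limited to genes of at least 1 CPM on average, an alternative chosen after seeing the data, it took 222. Members called in GA against Glu at 24 h (226 to 227 higher, 0 lower) and in GA against None at 24 h (218 to 226 higher, 1 lower) kept their counts within these ranges under all alternatives run. For GA against Glu at 1 h, library totals alone gave 53 higher and 36 lower, and leaving out single libraries gave 88 to 121 higher and 10 to 23 lower. Calls over all genes tested moved as well. There were 3836 higher and 3247 lower in the main fit, and 1508 higher and 5694 lower with library totals alone. With single libraries left out, 2838 to 3958 were higher, or 43.5% to 55.7% of calls, and the rest lower. For the difference between times, library totals alone gave 213 more positive and 0 more negative, and leaving out single libraries 193 to 208 more positive and 0 to 2 more negative. Over all genes tested, 4381 of 7986 calls were more positive in the main fit and 5596 of 8133 with library totals alone. With single libraries left out there were 4159 to 4664, or 53.8% to 58.8% of calls. Library totals alone also changed the rising share of all called genes, which became 20.9% (54.2% with TMM) for GA against Glu at 1 h, 35.9% (48.2%) for GA against None and 68.8% (54.9%) for the difference between times. Leaving out the 2 outlying libraries at 1 h (S replicate 1, Glu replicate 4), 125 members were higher and 11 lower in GA than Glu at 1 h. Over all genes tested, 4100 of 7335 calls were then higher (55.9%) and the rest lower. The named genes' GA over Glu values at 24 h kept their side of the threshold in 379 of 391 alternatives. The other 12 were all of Cz06g14260 and were most of the alternatives run for it. With a replicate block, 226 members were higher and 0 lower in GA than Glu at 24 h, 111 and 14 at 1 h, 223 and 1 against None, and 195 and 2 in the difference between times. Over all genes tested, the higher calls with the block were 4836, 3703, 4310 and 4199 in that order. They were part of 9060, 6847, 8984 and 7704 calls in either direction. Nothing in the labels pairs the numbers, and correlations of same-numbered libraries were -0.327 to -0.182 for GA and Glu at 24 h, 0.126, 0.113, 0.21 and -0.031 at 1 h, and -0.26 to 0.106 for GA and None at 24 h, so the numbers were not taken to pair samples. The causes of these shifts were not tested. Depth limits genes such as Cz08g02100, with 75 counts in GA and 49 in Glu at 24 h.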
